A study of Arabidopsis thaliana with 4 samples.

Results

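The 230 genes described here had their highest transcript level in Arabidopsis thaliana siliques, the pods that enclose the seeds, at days 11 to 15 after the flower opened. They were chosen from 29971 loci by that pattern itself. A gene was taken when it had a locus of its own of at least 300 bases, an FPKM above 0 in all 4 libraries and at least 10 in stage 3. FPKM is the number of fragments scaled to transcript length and library size. In addition, log2(FPKM + 1) in stage 3 had to exceed that of each other stage by at least 1, a 2-fold limit. The rule left out genes whose identifier begins AT1G620, AT1G622 or AT5G381. Among the 19040 loci that could pass, 9404 reached FPKM 10 in stage 3.

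Whole siliques of Col-0 plants grown in long days were collected at 4 ages, with 1 library each. The youngest fruits (stage 1) were taken on days 0 to 5 and the next (stage 2) on days 6 to 10. Those of days 11 to 15 formed stage 3, and the oldest, of days 16 to 20, formed stage 4. The growth protocol in the labels gives other day limits for some stages, so the ages carry that uncertainty. No genotype or treatment differed between the libraries. With 1 library per stage there was no replicate error, and all differences are descriptions of these 4 libraries.

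The second week after fertilisation is the time when an Arabidopsis seed fills. The embryo takes up sugars and amino acids that the mother plant unloads through the seed coat, and makes storage protein and oil. The coat closes around it by depositing waterproof and aromatic polymers. Suberin, the best known of these, is a polyester of long fatty acids, fatty alcohols and ferulic acid, laid down against the wall together with waxes. A silique holds pod wall, coat, endosperm and embryo at once, so fewer cells of a type and less RNA per cell cannot be told apart in these values.

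From the steps between the lowest FPKM values, depth was put at 65.9, 102.4, 68 and 59.1 M (mega) fragments for stages 1 to 4. On 1500 bases, 1 fragment was then worth 0.0115, 0.0074, 0.0111 and 0.0128 FPKM. Of the 230 genes, 24 rested on fewer than 10 such fragments in stage 1 and 2 did so in stage 2. None did in stages 3 and 4. The fixed tissue markers were all present as mixtures. Summed FPKM of 11 seed coat markers stood at 181, 710, 790 and 446 in stages 1 to 4, and of 10 embryo markers at 65.0, 140, 255 and 226. The sum of 7 endosperm markers was 15.8, 109, 74.3 and 39.8 FPKM. For 8 markers of the silique wall and dehiscence zone it was 175, 250, 261 and 415 FPKM, and for 4 pollen markers 393, 12.7, 5.02 and 5.39 FPKM. Seed coat and embryo sums were highest in stage 3. A few genes made up much of each sum, such as BAN (360 FPKM in stage 2), TT10 (388 in stage 3) and ADPG1 (246 in stage 4). FUS3 and ABI3 gave 112 and 74.1 FPKM of the embryo sum in stage 3. Other markers, among them BAN, TT2, TT12, LEC1, WOX8 and STM, were lower in stage 3 than in stage 2. The sums thus do not give the course of a tissue. The part of tissue proportions in the peak was not tested. The markers CUC1, GPAT5, MYB9 and MYB107 are themselves among the 230 genes. Without them the 8 other seed coat markers summed to 169, 701, 648 and 422 FPKM and were highest in stage 2, while the 9 other embryo markers summed to 64.4, 135, 237 and 224 FPKM. A few defining markers were listed at 0, namely MGH3 in stages 2 and 4, ESR1 (DRN) in stage 4, and WRKY10 (MINI3) in stages 3 and 4.

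As a whole the set climbed from a low start, peaked and then fell to a level above the start. The median gene stood at 2.99, 10.3, 50.5 and 12.7 FPKM in stages 1 to 4. Together the 230 genes took 0.427%, 1.25%, 5.29% and 1.65% of the FPKM sum over the 19040 loci. In stage 3 the levels ran from 10.1 FPKM for GRP18 to 1983 FPKM for PSK4. There were 12 genes at 1000 FPKM or more and 70 at 100 or more. The margin, meaning log2(FPKM + 1) in stage 3 minus that of the highest other stage, had a median of 1.47 and reached 4.19.

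**Figure D1:**
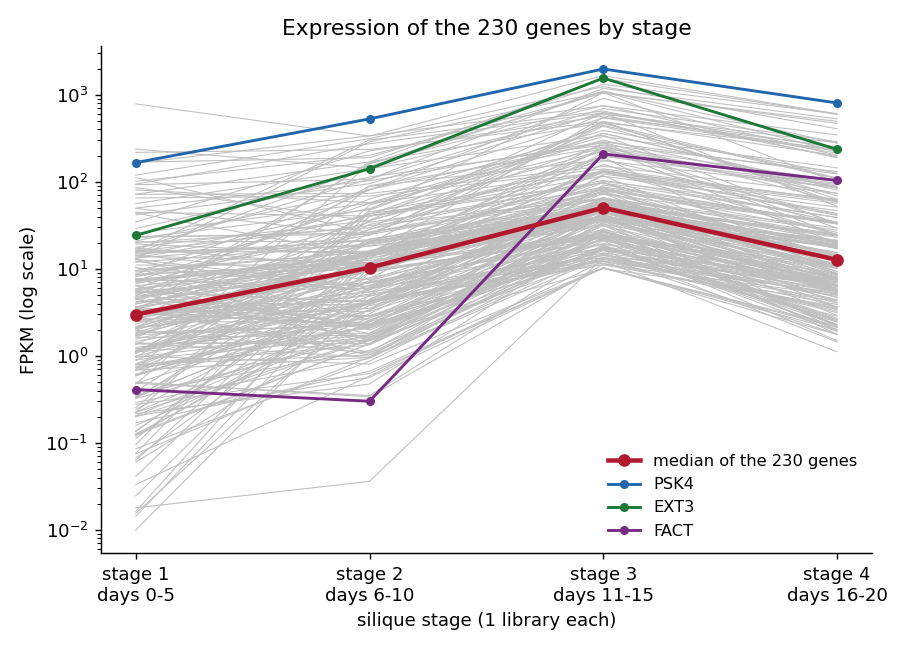
FPKM of the 230 genes on a log axis (y) in the 4 silique stages (x, 1 library each). Each grey line is a gene, the thick red line joins the medians (2.99, 10.3, 50.5 and 12.7 FPKM), and PSK4, EXT3 and FACT are drawn in colour; all lines turn down after stage 3.

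The highest other library was most often the later neighbour. It was stage 4 for 159 genes, stage 2 for 54 and stage 1 for 17. Stage 4 held a median of 29.6% of the stage 3 level, with a range from 3.41% to 49.6%. Stage 2 held a median of 16.3% and stage 1 of 4.46%. The spread within the set was wide on both sides, so some genes had a narrow peak and others a plateau that the limit only just admitted.

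**Figure D2:**
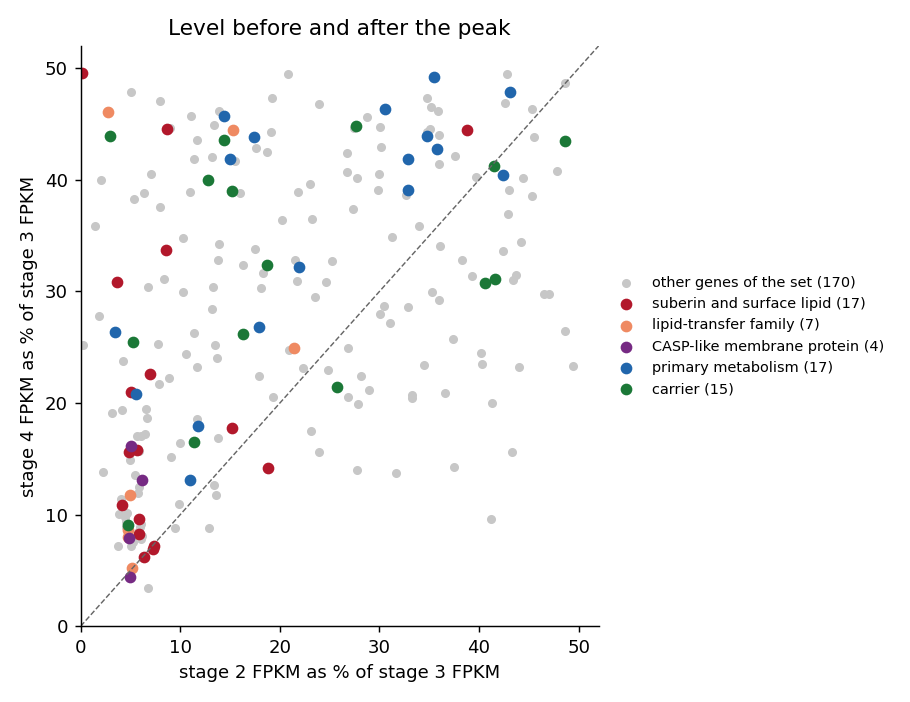
Stage 2 FPKM (x) and stage 4 FPKM (y), each as a percentage of the gene's stage 3 FPKM, 1 point per gene. The dashed line marks equal levels in both stages; suberin and surface lipid genes, lipid-transfer genes and CASP-like genes mostly lie near the lower left corner, and no point passes 50% because the rule sets that limit.

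The rule itself fixed the comparisons with stage 3. By construction all 230 genes rose at least 2-fold from stage 1 to stage 3, as 18.3% of the 19040 loci did, and from stage 2 to stage 3, as 11.2% did. All fell at least 2-fold into stage 4, as 5.35% of the loci did. These counts follow from the choice and are given for scale only.

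The rule did not name the comparisons among stages 1, 2 and 4, although all these libraries entered it. A gene was counted as higher or lower here on a difference of 1 or more in log2(FPKM + 1), provided that the larger value reached FPKM 1. In stage 2, 117 of the 230 genes (50.9%) were already higher than in stage 1, against a background of 10.4% of the 19040 loci and 13.4% of those with stage 3 FPKM of 10 or more. Another 14 genes were lower, or 6.09%, against 12.6% and 10.9%. The median difference was 1.04 on the log2 scale, and 0.01 over all 19040 loci. In stage 4, 159 genes (69.1%) remained higher than in stage 1, against 18.4% and 26.7%, and 2 were lower, against 19.9% and 16.0%. Between stage 2 and stage 4, 67 genes (29.1%) were higher in stage 4, against 13.0% and 16.7%, while 6 were lower, against 13.3% and 9.47%. The other 157 differed by less than 2-fold. The median differences were 1.74 for stage 4 against stage 1 and 0.51 for stage 4 against stage 2, and 0.00 and -0.02 over all loci.

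The exceptions had their own shape. The 14 genes that were lower in stage 2 than in stage 1 had a trough before the peak. They included the suberin genes GPAT5, FAR1 and CYP86A1, the polygalacturonase gene QRT2 and the zinc finger gene ZAT6. GPAT5 stood at 10.4, 1.36, 27.0 and 5.67 FPKM in stages 1 to 4, and DMP2, which codes for a membrane protein, at 112, 25.9, 228 and 95.5 FPKM. Both were thus lowest in stage 2. The 2 genes lower in stage 4 than in stage 1 were AT1G28400 (85.8, 35.5, 265 and 33.5 FPKM) and TLP-3. The 6 genes lower in stage 4 than in stage 2 included RCI2B, a small membrane protein of the cold and salt response, at 56.3, 142, 344 and 32.9 FPKM.

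Role groups were assigned by hand from product names after the values had been seen, so their counts describe the set. The largest were transcription factors (24 genes), wall proteins and polysaccharide enzymes (20), suberin and other surface lipids (17), primary metabolism (17), carriers (15) and kinases, phosphatases and ubiquitin ligases (15). There were 41 genes of other or unknown function. Median stage 3 levels per group ran from 25.4 FPKM for transcription factors to 494 FPKM for the lipid-transfer family and 910 FPKM for the 3 germins.

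**Figure D3:**
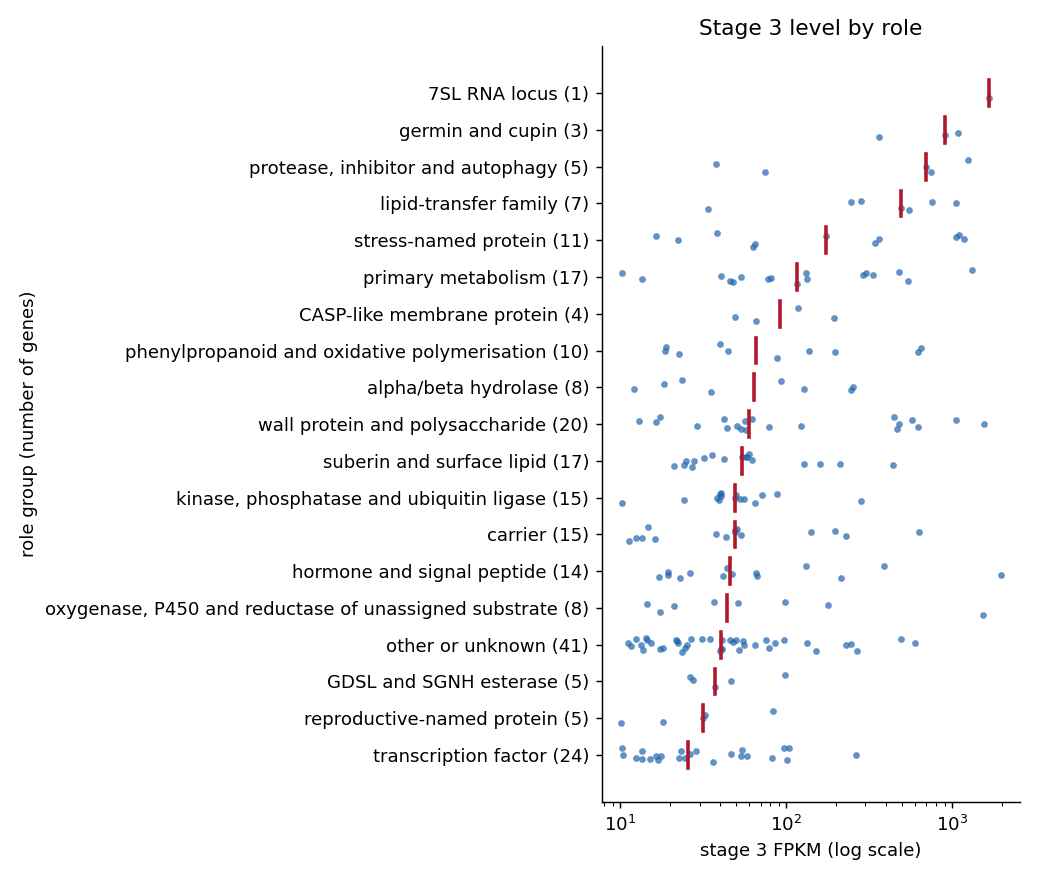
Stage 3 FPKM (x, log scale) of each of the 230 genes, grouped by assigned role (y, number of genes in brackets); the red bar is the group median. Lipid-transfer and germin genes sit high (medians 494 and 910 FPKM) and transcription factors low (25.4 FPKM).

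The clearest group was the machinery of suberin. Of 17 listed suberin genes with a locus, 15 could pass, and 10 of these are in the set. That share is 66.7%, beside 1.21% of all 19040 loci. Across the 15, the median difference on the log2 scale was 3.48 from stage 2 to stage 3 and -1.62 from stage 3 to stage 4, where all loci had -0.02 and -0.01. From stage 2 to stage 3, 12 were higher and 1 lower, beside 11.2% and 10.1% of all loci. Into stage 4, 11 were lower and 1 higher, beside 5.35% and 4.44%. The list was drawn up with earlier results of these data known, and 10 of its genes were chosen by these same differences.

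Promoter stretches are shown as examples of the searched motifs, beginning with FACT, an acyltransferase that links caffeic acid to fatty alcohols. All are read from RefSeq's TAIR10.1 assembly, 5′ to 3′ on the gene's own strand, and cover the 200 bases before the RefSeq gene start. Capitals mark the searched motifs, which are spelled out with their shares further on. The first 4 carry the RY core CATGCA, which seed maturation factors of the B3 class are known to bind. The stretches lie at chr5:25449111-25449310 (FACT, plus strand), chr3:1939854-1940053 (AT3G06390, minus strand), chr1:7455010-7455209 (EXT3, minus strand) and chr3:18465118-18465317 (PSK4, plus strand).
FACT: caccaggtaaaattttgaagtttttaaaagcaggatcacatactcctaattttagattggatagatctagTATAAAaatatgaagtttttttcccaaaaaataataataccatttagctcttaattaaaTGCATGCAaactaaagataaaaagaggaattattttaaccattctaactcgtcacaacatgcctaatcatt
AT3G06390: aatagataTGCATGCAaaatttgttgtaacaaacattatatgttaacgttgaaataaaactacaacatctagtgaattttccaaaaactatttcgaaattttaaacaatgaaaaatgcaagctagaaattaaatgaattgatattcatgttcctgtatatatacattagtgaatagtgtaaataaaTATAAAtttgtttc
EXT3: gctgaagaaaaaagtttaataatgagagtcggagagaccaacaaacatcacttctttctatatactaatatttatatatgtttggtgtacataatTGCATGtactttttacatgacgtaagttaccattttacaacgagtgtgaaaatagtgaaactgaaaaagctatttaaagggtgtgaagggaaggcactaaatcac
PSK4: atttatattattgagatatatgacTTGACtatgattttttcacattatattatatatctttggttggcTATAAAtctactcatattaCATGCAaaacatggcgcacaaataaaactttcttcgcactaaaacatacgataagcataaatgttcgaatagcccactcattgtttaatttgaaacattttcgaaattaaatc

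Enzymes that prepare the suberin monomers shared the stage 3 peak, which the rule fixes, but not the course before it. CYP86A1 and CYP86B1 are P450 enzymes that hydroxylate the ends of long and very long fatty acids. CYP86B1 (chromosome 5, 7803141 to 7805863) stood at 2.05, 7.77, 159 and 24.8 FPKM in stages 1 to 4. CYP86A1 stood at 4.50, 1.64, 27.9 and 2.3 FPKM. FAR1, a reductase that makes primary fatty alcohols, stood at 12.3, 5.39, 62.5 and 27.9 FPKM. From stage 1 to stage 2, CYP86B1 was higher while FAR1 and CYP86A1 were lower.

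Assembly enzymes spanned a wide range of levels. RWP1, also called ASFT, transfers ferulic acid onto the aliphatic chains and was the most abundant suberin gene of the set, at 8.13, 24.5, 437 and 68.9 FPKM. FACT (chromosome 5, 25449481 to 25451414) stood at 0.410, 0.301, 209 and 104 FPKM. Its stage 2 value rests on about 46.0 fragments. In stage 3 it was the next highest after RWP1, and in stage 4 it kept 49.6% of its peak, the largest part of any gene in the suberin and surface lipid group. GPAT5, an acyltransferase that links the acids to glycerol, had a small peak of 27.0 FPKM.

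Export genes and some of the listed control genes were part of the peak as well. ABCG6 and ABCG20 are ABC transporters needed for suberin barriers of roots and seed coats. ABCG20 stood at 5.92, 11.0, 129 and 43.4 FPKM and ABCG6 at 3.10, 2.28, 35.7 and 2.22 FPKM. MYB9 and MYB107 are transcription factors known to switch on suberin genes in the seed coat. MYB107 (chromosome 3, 661873 to 664006) stood at 1.12, 3.97, 57.2 and 12.9 FPKM, and MYB9 at 0.485, 3.36, 57.8 and 5.55 FPKM. Both reached nearly the same level in stage 3, and MYB9 fell further. The value of MYB9 is uncertain, since 59.4% of the gene is overlapped by DOT2 on the other strand (9.87, 19.9, 21.0 and 22.4 FPKM) and the library kit did not keep strand. For FAR1 the overlap with AT5G22505 is 34.4%.

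The suberin genes outside the set fell short in different ways. FAR4, a reductase close to FAR1, stood at 3.97, 0.182, 18.9 and 16.7 FPKM and so had a plateau over stages 3 and 4. KCS20, an elongase that also serves waxes, was highest in stage 1, at 92.7, 35.6, 34.6 and 28.5 FPKM. FAR5 was highest in stage 1 as well, while GPAT7 stayed below 1 FPKM. Of the listed MYB factors, MYB41 also stayed below 1 FPKM and MYB39 was listed at 0 in all 4 libraries. DCF was highest in stage 2 and lower in stage 3, at 8.31, 13.8, 0.994 and 3.09 FPKM. Genes of cutin and wax, the surface lipids of the outer epidermis, had another course. Of the 17 that could pass, 15 were lower in stage 4 than in stage 1, beside 19.9% of all loci, and the median difference from stage 2 to stage 3 was -0.83. CER1, which makes alkanes, stood at 406, 228, 18.0 and 36.0 FPKM. None of the 17 is in the set, which for a list of this size is near the 1.21% of all loci.

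**Figure D4:**
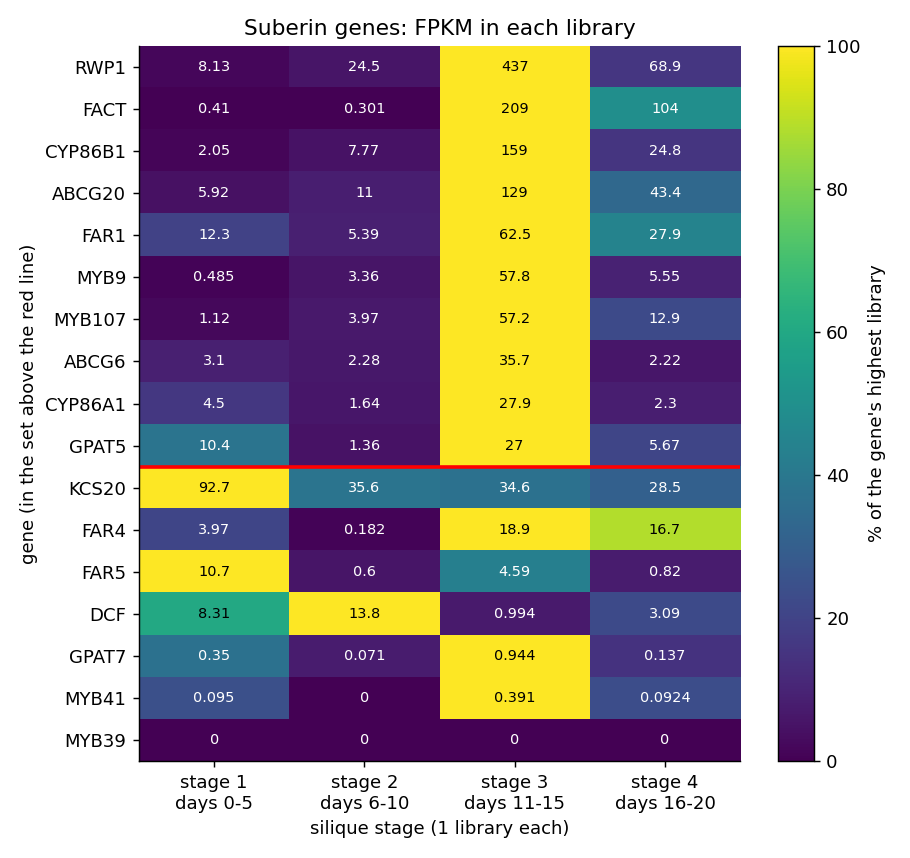
FPKM (numbers in the cells) of the 17 listed suberin genes in the 4 silique stages, coloured by percentage of each gene's highest library. The 10 genes above the red line are in the set and are brightest in stage 3; the 7 below it are not, for instance FAR4 with 18.9 and 16.7 FPKM in stages 3 and 4.

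Further genes that were grouped by hand with surface lipids were in the set, outside the list, though not all are named for them. KCS16 and KCS17, condensing enzymes of fatty acid elongation, stood at 0.746, 2.17, 59.9 and 18.5 FPKM and at 1.25, 2.32, 31.8 and 2.2 FPKM. AT5G12420, of the WSD1-like family that makes wax esters, reached 42.0 FPKM, and AT1G21540, of the acyl-activating ligases, 24.9 FPKM. AT5G08250, an uncharacterised P450, stood at 0.224, 1.54, 20.9 and 1.5 FPKM. In these 5 genes stage 3 was the only library above 20 FPKM.

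The largest margins belonged to small membrane and secreted proteins. AT3G06390 (chromosome 3, 1938732 to 1939779) had the largest of all, 4.19, with 1.87, 9.59, 193 and 8.52 FPKM. It codes for a protein of the UPF0497 family, which includes the CASP and CASP-like proteins. The CASPs are membrane scaffolds that place the lignin of the Casparian strip in the root. AT4G20390 (1.16, 5.72, 118 and 9.26 FPKM), AT5G44550 (2.98, 4.05, 66.1 and 8.64) and AT4G03540 (0.159, 2.48, 49.2 and 7.95) belong to the same family. The family had 19 loci at stage 3 FPKM of 10 or more, of which 4 (21.1%) are in the set, beside 2.45% of all such loci. All 4 were low on both sides of stage 3, and none kept more than 16.1% of its peak in stage 4.

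Lipid-transfer proteins carry lipids in a pocket and are secreted to the wall, some of them on a lipid anchor. Of 25 loci of their superfamily at stage 3 FPKM of 10 or more, 7 (28.0%) are in the set, beside 2.45% of all such loci. AT5G13900 had the sharpest peak of them, with 1.12, 1.72, 33.7 and 1.77 FPKM and a margin of 3.65. AT3G22600 stood at 49.5, 24.3, 494 and 58.1 FPKM. AT5G13900 was nearly level outside stage 3, whereas AT5G55410 rose in steps, at 3.99, 162, 1059 and 471 FPKM. AT4G30880 and AT1G03103 began below 1 FPKM and reached 757 and 551 FPKM in stage 3.

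A pair of these genes lies head to head on chromosome 2. AT2G48130 stood at 1.7, 11.6, 245 and 19.5 FPKM and EDA4 at 3.44, 13.3, 281 and 24.3 FPKM. The profiles ran side by side in all 4 libraries. The 276 bases between the RefSeq gene ends, at chr2:19686057-19686332, therefore lie upstream of both genes. They are shown here because the pair has this stretch in common. It is written on the plus strand, the strand of EDA4, with a TATA box on the strand of AT2G48130 and an ABRE core in capitals.
AT2G48130 and EDA4: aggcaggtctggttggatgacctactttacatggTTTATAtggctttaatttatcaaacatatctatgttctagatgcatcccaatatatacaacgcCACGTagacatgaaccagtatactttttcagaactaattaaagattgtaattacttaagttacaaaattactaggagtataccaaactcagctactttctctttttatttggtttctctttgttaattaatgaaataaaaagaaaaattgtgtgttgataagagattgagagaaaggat

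GDSL and SGNH esterases are a family that includes enzymes assembling or cutting cutin and suberin polyesters. Of their 19 loci at stage 3 FPKM of 10 or more, 5 (26.3%) are in the set, beside 2.45% of all such loci. AT2G23540 stood at 2.63, 9.71, 98.3 and 10.8 FPKM, and AT5G37690 at 0.905, 1.65, 27.3 and 2.49 FPKM. The other 3, AT1G74460, AT1G28590 and AT1G28660, reached 46.5, 37.1 and 26.3 FPKM. Of the HXXXD acyltransferases, the family of RWP1 and FACT, 3 of 9 loci at that level (33.3%) are in the set, beside the same 2.45%. The third is AT5G39090. The suberin and surface lipid, CASP-like, lipid-transfer and GDSL groups had median margins of 2.34, 3.17, 3.07 and 2.51, beside 1.47 for the whole set. The rule selects on the margin and the groups were made after the values were seen, so these medians only describe the set.

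Aromatic metabolism supplied the next group. PAL4 and CCoAOMT1 are enzymes of the phenylpropanoid route, which gives ferulic acid and lignin units, and 4CL2 and 4CL5 activate the acids for it. PAL4 stood at 7.48, 14.1, 138 and 41.2 FPKM, while PAL1, which is not in the set, stood at 47.6, 62.1, 56.7 and 34.9 FPKM. CCoAOMT1, a methyltransferase, was abundant in every library, at 94.3, 274, 621 and 214 FPKM. Of 23 genes listed for secondary wall and lignin, 3 (13.0%) are in the set, beside 1.21% of all loci. The median difference of the list from stage 2 to stage 3 was -0.01. The list thus had no common course.

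4CL5 and 4CL2 lie side by side on chromosome 3 (7448040 to 7457379). They stood at 1.73, 9.60, 44.3 and 13.7 FPKM and at 3.96, 14, 40.0 and 17.8 FPKM. Enzymes of oxidative polymerisation accompanied them. LAC5 and LAC3, laccases that oxidise phenolic units in the wall, were 2 of the 3 laccase loci at stage 3 FPKM of 10 or more. That is 66.7%, beside 2.45% of all such loci. Of the 13 laccase loci that could pass it is 15.4%, beside 1.21%. LAC5 stood at 9.58, 15.7, 198 and 93.0 FPKM and LAC3 at 0.0857, 0.870, 18.8 and 1.90 FPKM. Of the peroxidases, AT4G37520 was broad (16.0, 303, 652 and 194 FPKM) and AT1G68850 narrow (0.594, 3.96, 87.4 and 7.79 FPKM). The dirigent-like gene AT3G13660 and FLS3, named as a flavonol synthase, reached 18.7 and 22.5 FPKM.

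The AC element, spelled ACCAACC or ACCTACC, is a motif known from phenylpropanoid promoters that MYB factors bind. The promoters of 4CL2 (chr3:7457405-7457604, minus strand) and scpl5 (chr1:27558775-27558974, minus strand) are given as examples. 4CL2 has 2 copies, starting at -140 and -31 from the gene start. In scpl5, which codes for a serine carboxypeptidase-like protein (0.0155, 4.48, 74.5 and 5.82 FPKM), the copy at -120 is on the other strand.
4CL2: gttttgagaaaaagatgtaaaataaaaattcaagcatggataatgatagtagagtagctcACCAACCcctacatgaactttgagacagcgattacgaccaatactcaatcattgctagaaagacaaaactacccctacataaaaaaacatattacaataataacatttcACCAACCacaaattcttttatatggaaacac
scpl5: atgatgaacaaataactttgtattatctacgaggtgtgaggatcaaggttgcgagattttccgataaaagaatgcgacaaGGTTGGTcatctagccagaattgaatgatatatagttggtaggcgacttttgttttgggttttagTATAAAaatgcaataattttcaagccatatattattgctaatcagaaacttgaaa

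Structural wall proteins were among the most abundant genes of the set. EXT3, an extensin that forms a cross-linked scaffold in the wall, stood at 24.3, 141, 1559 and 236 FPKM, although 29.6% of it is overlapped by AT1G21313 on the other strand. AT4G38080 and AT2G22510, both hydroxyproline-rich glycoproteins, stood at 22.5, 47.9, 1061 and 98.8 FPKM and at 17.7, 35.9, 623 and 52.4 FPKM. Their margins of 3.41 and 3.55 were larger than that of EXT3, 2.72. PELPK1 and PELPK2 are neighbouring genes for proteins built of a short proline-rich repeat, on chromosome 5 (2958292 to 2961331). PELPK1 stood at 20.0, 29.6, 481 and 63.2 FPKM and PELPK2 at 1.2, 4.01, 79.1 and 5.69 FPKM. A further hydroxyproline-rich gene close by, AT5G09480, reached 466 FPKM.

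Enzymes acting on pectin and other polysaccharides had mixed profiles. AT5G51490, a pectin methylesterase or inhibitor, stood at 0.254, 47.2, 445 and 109 FPKM, and AT5G20860 of the same family at 0.227, 3.06, 62.2 and 9.27 FPKM. QRT2, a polygalacturonase known for separating pollen grains, for abscission and for anther opening, stood at 5.36, 1.53, 29.1 and 2.2 FPKM. It was the only dehiscence list gene of 14 in the set (7.14%, beside 1.21% of all loci). BGAL4, a beta-galactosidase, was broad at 34.5, 227, 572 and 230 FPKM. The glycine-rich protein gene AT4G33610, with 4.22, 3.85, 56.7 and 1.93 FPKM, kept only 3.41% of its peak in stage 4, the smallest part of any gene in the set. Its neighbour AT4G33600 kept 13.7%.

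The 3 germins, secreted cupin-fold proteins, were all abundant. AT5G39130 stood at 13.1, 290, 1080 and 222 FPKM, GER2 at 4.90, 80.8, 910 and 202 FPKM, and AT5G39160 at 2.12, 42.5, 363 and 84.4 FPKM. GER2 and AT5G39160 have transcripts that are 99.7% identical, so how reads were shared between them is uncertain. All 3 were higher in stage 2 than in stage 1, beside 50.9% of the whole set and 10.4% of all loci.

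Carriers in the set move sugars, amino acids and metals. SWEET11, a sucrose exporter that feeds the embryo from the coat, stood at 41.8, 95.4, 629 and 246 FPKM. Its relative SAG29 (SWEET15) stayed outside, at 31.9, 73.6, 614 and 442 FPKM, because stage 4 was too close. SWEET12 reached 83.7 FPKM in stage 3 and 66.1 in stage 4. Of the 22 sugar transport list genes, SWEET11 and SUS6 are in the set (9.09%, beside 1.21% of all loci). SUS6, a sucrose synthase known from phloem, stood at 1.37, 1.49, 13.5 and 1.77 FPKM.

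Amino acid export was represented by the UMAMIT and glutamine dumper families. UMAMIT12, UMAMIT28 and UMAMIT27 stood at 9.47, 42.6, 228 and 73.8 FPKM, at 5.06, 2.29, 43.6 and 11.1 FPKM, and at 3.35, 4.31, 37.8 and 6.23 FPKM. UMAMIT28 is known to export amino acids within seeds. The glutamine dumpers are small membrane proteins that stimulate amino acid export. They had 3 loci at stage 3 FPKM of 10 or more, and all 3 are in the set, beside 2.45% of all such loci. Of the 5 dumper loci that could pass, these are 60%, beside 1.21% of all loci. GDU3 was the most abundant and least peaked, with 65.4, 68.6, 141 and 61.4 FPKM and a margin of 1.03. GDU4 stood at 20.4, 20.8, 50.2 and 20.7 FPKM and GDU5 at 0.343, 3.78, 14.6 and 3.14 FPKM. Metal carriers included HMA4, a zinc exporter, at 4.78, 20.4, 49.0 and 15.2 FPKM, and AT1G21140 of the vacuolar iron transporter family, at 1.35, 19.9, 49.0 and 15.1 FPKM. Both rose by stage 2 and ended stage 4 below their stage 2 level.

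Hormone and signal genes reached from the most abundant gene of the set to rare ones. PSK4 (chromosome 3, 18465679 to 18466376), the precursor of the growth peptide phytosulfokine, stood at 167, 529, 1983 and 807 FPKM. RALF1, a peptide that raises the pH of the wall and slows growth, stood at 2.11, 3.94, 41.4 and 3.63 FPKM. The abscisic acid gene NCED6, a carotenoid-cleaving enzyme known from the endosperm, stood at 0.816, 6.47, 47.1 and 15.4 FPKM. Of the 24 genes on its list that could pass, NCED6 alone (4.17%) is in the set, beside 1.21% of all loci. For cytokinin, IPT6, an isopentenyltransferase, stood at 0.0164, 14.9, 131 and 34.3 FPKM. GH3.9, named as an auxin-conjugating enzyme, stood at 5.86, 63.5, 390 and 126 FPKM. All 5 fell at least 2-fold into stage 4, as the rule requires, and only RALF1 ended below 5 FPKM.

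Genes of salicylic acid were present as well. UGT74F2 and UGT76B1 are glycosyltransferases that act on it or on related signals, and stood at 5.30, 10.8, 213 and 102 FPKM and at 0.119, 4.40, 66.2 and 12.4 FPKM. DMR6, which hydroxylates it, and PBS3, which conjugates its precursor, reached only 22.8 and 19.5 FPKM. BGL2 (PR2), a glucanase and common marker of the salicylic acid response, stood at 1.4, 0.962, 42.3 and 5.86 FPKM. PR1, the other common marker, met the fold and level limits but was listed at 0 in stage 1, so it is not in the set. It stood at 0, 0.0790, 14.9 and 2.36 FPKM.

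The 24 transcription factors were mostly of low abundance, and 17 had stage 4 as their next highest library. In the whole set 159 of the 230 genes did, a similar share. Of the NAC family, 6 of 32 loci at stage 3 FPKM of 10 or more (18.8%) are in the set, beside 2.45% of all such loci. NAC6 (ORE1), a driver of leaf senescence, stood at 14.5, 7.49, 54.1 and 18.5 FPKM. ANAC087, known for cell death in root caps, stood at 7.66, 5.91, 53.5 and 24.4 FPKM. RD26, a dehydration-responsive factor, stood at 5.70, 15.3, 81.6 and 34.7 FPKM, and NAC058 at 0.217, 0.475, 26.3 and 7.32 FPKM. CUC1, which sets organ boundaries in the embryo, stood at 0.589, 4.85, 17.5 and 2.44 FPKM, and NAC075 reached 22.7 FPKM.

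NAC6 belongs to the senescence list. Of its 23 genes that could pass, 13 were higher in stage 3 than in stage 2, beside 11.2% of all loci, and 2 were lower in stage 4 than in stage 3, beside 5.35%. The median difference was 1.84 into stage 3 and 0.08 into stage 4. The chlorophyll breakdown gene NYE1, for example, stood at 102, 29.9, 210 and 183 FPKM.

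MYB and WRKY factors had narrow peaks. Besides MYB9 and MYB107, MYB67 stood at 0.0179, 0.0362, 13.5 and 3.41 FPKM and MYB54 at 0.277, 0.628, 10.3 and 1.76 FPKM. The stage 1 and stage 2 values of MYB67 rest on about 1.25 and 3.91 fragments. WRKY24 stood at 0.292, 0.938, 23.0 and 2.62 FPKM, WRKY43 at 0.0750, 0.973, 15.1 and 2.6 FPKM, and WRKY56 at 0.170, 0.667, 10.2 and 1.99 FPKM. ABO3, a WRKY factor of the abscisic acid response, stood at 0.2, 1.51, 24.5 and 1.98 FPKM with a margin of 3.10. All 4 WRKY genes stayed below 3 FPKM outside stage 3. The LOB-domain genes JLO and LBD18 were broader, at 1.62, 28.5, 104 and 38.9 FPKM and at 1.07, 13.3, 36.4 and 7.61 FPKM.

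None of the 16 seed maturation regulators that could pass is in the set, a share near the 1.21% of all loci. FUS3 and ABI3, B3 factors of the embryo, stood at 0.152, 22.1, 112 and 114 FPKM and at 0.0255, 7.82, 74.1 and 81.1 FPKM. They rose with the set but did not fall after stage 3. LEC1 was highest in stage 2. The mucilage list (19 genes) and the flavonoid list (17 genes that could pass), which mark other seed coat products, also had no gene in the set. For lists of these sizes that is near the 1.21% of all loci in the set. Their median differences from stage 2 to stage 3 were -0.20 and -2.24.

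Proteins of breakdown and cell death were few but abundant. CEP1, a cysteine protease known from dying tapetum and other cells, stood at 17.2, 108, 696 and 290 FPKM. AT5G47550, a cystatin and so an inhibitor of such proteases, stood at 120, 314, 1244 and 407 FPKM. ATG8F, a ubiquitin-like protein that coats autophagosomes, stood at 164, 339, 748 and 347 FPKM. Stage 4 held 41.7% of the stage 3 level in CEP1 and 32.7% in the cystatin.

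Primary metabolism kept much of its level after the peak. Stage 4 held a median of 41.8% of the stage 3 level in its 17 genes, beside 29.6% in the whole set. GLYI7 and GLY3, glyoxalases that detoxify reactive aldehydes, stood at 168, 190, 1321 and 604 FPKM and at 72.1, 170, 478 and 236 FPKM. AGT3, an aminotransferase, stood at 20.9, 81.1, 542 and 227 FPKM. Genes of amino acid breakdown were present too, with BCAT-1 and IVD of the branched-chain route at 46.0 and 132 FPKM in stage 3 and HGO of the tyrosine route at 289 FPKM. CSY1, a citrate synthase, went from 0.225 FPKM in stage 1 to 54.0, 302 and 80.8 FPKM.

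Stress-named genes included 3 of the 12 at 1000 FPKM or more. AT3G11930, a universal stress protein-like hydrolase, stood at 92.7, 107, 1187 and 529 FPKM, AT4G27450, an aluminium-induced protein, at 15.2, 149, 1107 and 279 FPKM, and J8, a plastid DnaJ protein, at 101, 202, 1049 and 496 FPKM. LTI30, a dehydrin, stood at 0.587, 36.2, 174 and 86.1 FPKM. It was the only gene of 18 LEA and dehydrin genes that could pass that is in the set (5.56%, beside 1.21% of all loci). In that list 14 genes were higher in stage 3 than in stage 2, beside 11.2% of all loci, and LTI30 was the 1 gene lower in stage 4 than in stage 3, a share near the 5.35% of all loci. HB1, a non-symbiotic haemoglobin, stood at 3.24, 2.2, 22.1 and 3.63 FPKM. GRP19, a glycine-rich protein of the pollen coat, stood at 6.36, 1.80, 31.5 and 5.38 FPKM, while the pollen markers AGP6 and VGD1 were at 3.06 and 0.773 FPKM in stage 3.

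Enzymes that split esters formed a further group of 8 alpha/beta hydrolases. AT4G36610 had the sharpest peak of them, at 4.49, 14.2, 247 and 29.4 FPKM. MES6 and MES4, methyl esterases of a family that acts on small hormone esters, were broad, at 2.49, 90.2, 251 and 104 FPKM and at 0.0958, 45.1, 128 and 59.6 FPKM. AT2G18360 stood at 0.123, 1.38, 92.4 and 33.2 FPKM. The 6 genes named as alpha/beta hydrolases only were 6.82% of the 88 such loci at stage 3 FPKM of 10 or more. Of all loci at that level, 2.45% are in the set.

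The 15 genes grouped by hand as kinases, phosphatases and ubiquitin ligases had modest peaks, with margins from 1.06 to 1.83. SIS was by far the most abundant, at 8.69, 82.2, 284 and 60.1 FPKM, although its place among these enzymes was not checked. MAPKKK17 and MAPKKK13, upstream kinases of mitogen-activated cascades, stood at 4.65, 14.9, 55.6 and 13.9 FPKM and at 0.614, 3.36, 40.3 and 12.5 FPKM. SNRK2-8, a kinase of the family that answers abscisic acid and osmotic stress, stood at 2.32, 16.3, 49.8 and 19.2 FPKM. RGLG2, a RING ubiquitin ligase, was nearly level outside stage 3, at 23.1, 26.1, 87.4 and 34.1 FPKM. Proteins named RING/U-box made up 5 of 131 loci at stage 3 FPKM of 10 or more (3.82%), a share close to the 2.45% of all such loci.

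Oxygenases, P450s and reductases to which the hand grouping gave no substrate add 8 genes. Whether a substrate is known for each of them was not checked. AT1G12010, of the 2-oxoglutarate dioxygenase family, stood at 3.23, 170, 1540 and 599 FPKM, the fourth highest level of the set in stage 3. That family had 7 of 34 loci at stage 3 FPKM of 10 or more in the set (20.6%), beside 2.45% of all such loci. All 8 oxygenase genes were higher in stage 2 than in stage 1, beside 50.9% of the whole set and 10.4% of all loci. The locus annotated as 7SL RNA1, AT7SL-1, stood at 787, 336, 1663 and 606 FPKM. It shares 98.0% identity over 86.3% of its length with EVE1, which was listed at 0 in all 4 libraries. The value of AT7SL-1 is uncertain because of that likeness. Among genes without a known function, AT2G43390 (0.730, 1.54, 40.4 and 2.91 FPKM) and AT2G36295 (0.357, 1.59, 40.9 and 4.1 FPKM) had the sharpest peaks, and AT5G65207 was the most abundant, at 238, 144, 601 and 281 FPKM.

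Several features that the rule did not use were compared with other loci. The genes were short and had few exons beside all loci. Their median RefSeq transcript was 1393.5 bases long with 2.5 exons, and over the 19040 loci it was 1691 bases with 4 exons. Among genes that peaked in stage 2 by the same rule the medians were 1129.5 bases and 3 exons. Among those that peaked in stage 4 they were 1387.5 bases and 3 exons. Short transcripts were thus not particular to the set. Single-exon genes made up 27.0% of the set, 24.4% of the 239 genes that peaked in stage 2 by the same rule and 22.3% of the 310 that peaked in stage 4. They made up 18.6% of the 19040 loci and 12.7% of those with stage 3 FPKM of 10 or more. By chromosome, 48, 39, 47, 41 and 55 genes lay on chromosomes 1 to 5. There were 14 genes (6.09%), in 7 pairs, with another gene of the set next to them or with 1 gene between, compared with 13.8% in the stage 2 set and 12.3% in the stage 4 set. Genes that the rule left out by identifier also lay side by side and met the other limits, AT1G62060 with AT1G62070 and AT5G38160 with AT5G38170, so the share depends in part on that exclusion. The pairs not yet named were AT1G04360 with AT1G04380, AT2G23540 with MES6, and COL5 with GDU3.

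Promoters were searched over the 500 bases before the RefSeq gene start, on both strands except for the TATA box TATAAA, which was sought on the gene's strand. The RY core CATGCA was present in 27.8% of the 230 promoters, in 16.9% of those of the loci that could pass and in 15.7% of those with stage 3 FPKM of 10 or more. It was in 18.5% of the stage 2 set and 25.2% of the stage 4 set. The AC element was present in 12.6% of the 230 promoters, against 7.34%, 7.26%, 4.62% and 8.39% in the same order. The palindrome TGCATGCA, which holds an RY core on each strand, was found in 8 promoters (3.48%, against 1.09% of the loci that could pass). These included FACT, AT3G06390, LAC5, NAC058 and AT1G21540.

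Shares of the other motifs were as follows. The ABRE core ACGTG, bound by bZIP factors of the abscisic acid response, was in 34.3% of the 230 promoters, 36.8% of those of loci with stage 3 FPKM of 10 or more, 45.0% of the stage 2 set and 52.9% of the stage 4 set. The G-box CACGTG, which contains it, gave 9.13%, 11.1%, 13.9% and 16.8%. W-box TTGAC shares were 67.4% and 65.6% in the first 2 groups, and those of the NAC core CATGTG were 24.3% and 20.3%. A TATA box was in 54.8% and 48.6%. The GCN4-like motif, TGAGTCA or TGACTCA, was in 5.22% and 5.19%. In the phenylpropanoid group 5 of 10 promoters held an AC element, among them PAL4, 4CL2 and CCoAOMT1. In the CASP-like group 2 of 4 did. The suberin and surface lipid group had 2 of 17 (11.8%), near the 12.6% of the whole set. These groups are small and were made by hand after the values had been seen. These matches describe letters in a window and not bound sites.

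**Figure D5:**
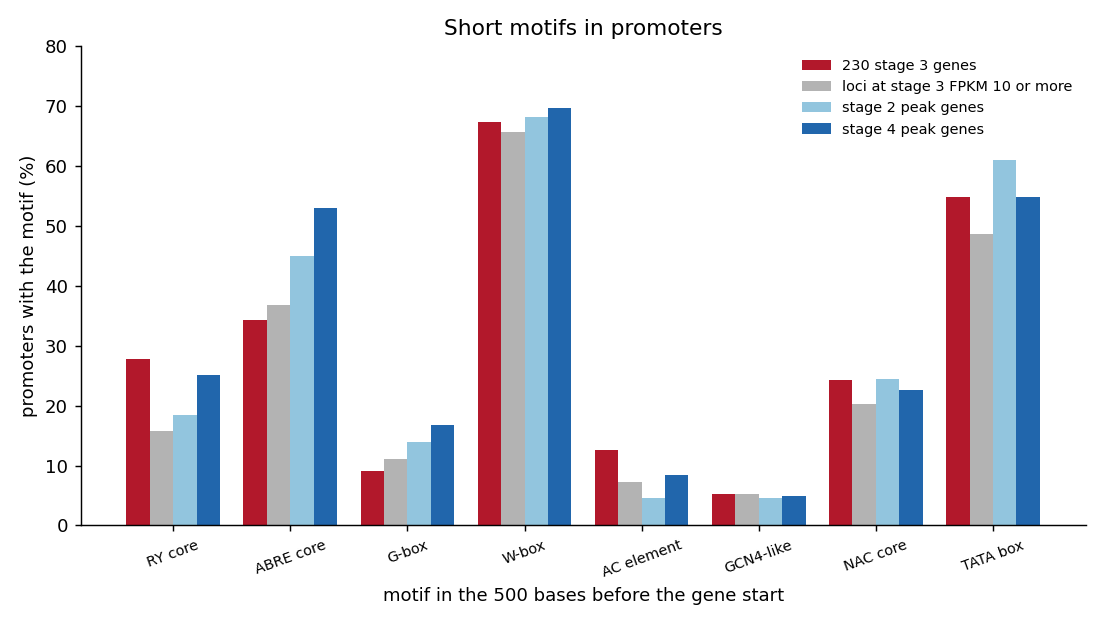
Percentage of promoters (y) with each short motif (x) in the 500 bases before the gene start, for the 230 genes, loci with stage 3 FPKM of 10 or more, and the genes peaking in stages 2 and 4. RY core shares were 27.8%, 15.7%, 18.5% and 25.2%; ABRE core shares were 34.3%, 36.8%, 45.0% and 52.9%.

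The limits of the rule cut through a continuum. Just inside the 2-fold limit were FACT, AT1G04380 and LTI30, each with a margin of 1.01, and just outside AT1G49700, UGE2 and MHX, each with 0.99. At the level limit, GRP18, WRKY56 and PLP8 stood at 10.1, 10.2 and 10.2 FPKM in stage 3, and AT5G14730, AT1G23510 and AT5G23170 at 9.89, 9.81 and 9.55 FPKM. Another 7 loci met the other limits but were listed at 0 in a library. Of these, SESA4, a storage albumin, was listed at 0 in stage 4 after 10984 FPKM in stage 3, and the other 6 were at 0 in stage 1. Outside the set, the 10 genes whose profiles came nearest to its median profile, by Euclidean distance of centred log2(FPKM + 1) over the 4 libraries, were PLPB, AT1G66760, GPK1, AT5G20810, RAP2.10, AT4G17900, AT3G03240, Tic32-IVa, YUC10 and AT1G26762. The closest, PLPB, a blue light receptor-like protein, stood at 27.0, 48.0, 234 and 128 FPKM, at a distance of 0.79.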

How the data were processed

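Total RNA of siliques was made into libraries with the TruSeq RNA version 2 kit and sequenced as paired ends, per the labels' protocols. That kit keeps no strand. Per the submitters' processing notes, TopHat, Cufflinks, Cuffdiff and TAIR10 were used. Versions are not given in the sources used here, and deposited values are the authors' FPKM per locus. The 30915 rows per file reduce to 29971 loci, of which 818 name several genes and were not used as members.

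The members, gene lists, roles and limits were chosen with earlier results of these data known. Values were compared as log2(FPKM + 1), with a pseudocount of 1, which understates the change of low genes. FPKM are not counts, and with 1 library per stage no test was run. Depth was estimated from low values, of which 69.1% to 78.2% fell within 0.2 of a whole fragment. That estimate gives relative depth only if libraries had been scaled to each other.

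Names, transcript lengths and promoters came from RefSeq TAIR10.1, in which all 230 genes were found; gene coordinates are those of the deposited files. Of 798 list symbols in 33 lists, 748 matched 1 gene. Near copies were sought with blastn 2.17.0 at 95% identity over 30% of the transcript. Named genes were those highest in stage 3 or in margin, list members, families of 3 or more, neighbours and genes at the limits; others were named after their values were seen. The code of the peak rule was run on simulated libraries that differed only by counting noise and by set rises in stage 3. That run checks the code and not the variation between siliques. Python 3.11.15, numpy 2.4.6, pandas 2.3.3 and matplotlib 3.10.9 were used.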

Additional observations from a re-analysis of the deposited data

How the results depend on the processing

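The number of genes that met the rule was 230 and ranged from 161 to 292 under 8 of 9 alternatives. A 4-fold limit left 65. Equal FPKM sums over loci of 300 bases or more left 177, all among the 230, and raised the median difference of all loci from stage 1 to stage 2 from 0.01 to 0.35 on the log2 scale. Median ratio scaling kept all 230.

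Counts among the other stages moved more. With a 4-fold limit, 57 genes were higher and 2 lower in stage 2 than in stage 1, 99 higher and 0 lower in stage 4 than in stage 1, and 16 higher and 1 lower in stage 4 than in stage 2. A pseudocount of 5 gave 6 genes lower in stage 2 than in stage 1, 1 lower in stage 4 than in stage 1, and 39 higher and 2 lower in stage 4 than in stage 2. Equal FPKM sums gave 6 lower in stage 2 than in stage 1 and 11 lower in stage 4 than in stage 2. In stage 4 against stage 1, a pseudocount of 0.1 gave 5 lower and median ratio scaling 4. The cause was not tested beyond the construction of each alternative. Windows of 250 and 1000 bases, chosen after seeing the data, gave RY core shares of 13.0% and 41.3%, against 8.18% and 32.1% of the loci that could pass. AC element shares were 6.96% and 17%, against 3.96% and 14.7%. The stage 4 set lay above the 230 genes in RY cores at 250 bases (18.1%) and 1000 bases (41.6%), and in AC elements at 1000 bases (17.7%), which turns the order found at 500 bases.

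No paired analysis was possible because each stage has 1 library. Leaving out a library would leave its stage empty and was not run. Values resting on fewer than 10 fragments, as for 24 genes in stage 1, show only that the level was low.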
